A study of Mus musculus with 6 samples.

Results

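The mitochondrial ribosomal protein genes were taken as all genes whose RefSeq accession maps to a mouse symbol of Mrpl or Mrps followed by a number. They numbered 78 of the 21409 genes in the files, and were represented by 84 of 26073 RefSeq transcripts. A transcript without a symbol was counted as a gene under its own RefSeq accession. For each gene the transcript with the most counts over all libraries was used. All 78 had an RPKM (read count per exon length and library size) of at least 1 in the GFP library, as did 12381 genes in all, so none was lost to the filter on low values.

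RNA-seq was performed in V6.5 murine embryonic stem cells (ESCs), a C57BL/6-129 line, after lentiviral shRNA depletion of subunits of 2 SMC complexes, to ask how each complex bears on ESC gene expression. The control hairpin targeted GFP (1 library), 1 hairpin targeted SMC1, a cohesin subunit (1 library), 2 hairpins targeted CAPH2, a condensin II subunit (CAPH2 #1 and CAPH2 #2), and 2 targeted SMC2, shared by condensin I and II (SMC2 #1 and SMC2 #2). CAPH2 #1 and #2 carry the hairpins of those names in the construct list of the study, and the sample labels call them R1 and R2, with the numbers 3 and 4 as other names. All cells had been kept on irradiated mouse embryonic fibroblasts, were moved off these feeders for a passage, infected, and selected with puromycin at 0.5 µg/ml for 48 hr and 1 µg/ml for another 48 hr before RNA was taken. Each library is a different hairpin, so the 4 condensin libraries are replicates of a target and not of a construct, and GFP and SMC1 were each sequenced in a single library without replication.

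The mitochondrial ribosome translates the few membrane proteins encoded by mitochondrial DNA, all of them core subunits of the oxidative phosphorylation complexes. Its rRNAs come from the mitochondrial genome, but all of its proteins are encoded in the nucleus, made in the cytosol and imported. Many are homologs of bacterial ribosomal proteins, while others were added during the evolution of mitochondria.

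Promoters of nuclear genes for mitochondrial proteins often hold binding motifs for ETS factors such as GABP, for NRF1 and for YY1. In the 300 bases from 250 upstream of each RefSeq start (mm9), CCGGAAG (ETS/GABP) was found on either strand in 35 of 78 members (44.9%) against 12.05% of all 21409 promoters and 18.8% of those of expressed genes. AAGATGGCG (YY1) was found in 9 members (11.5%) against 2.15% of all promoters and 3.56% of expressed ones, and CGCATGCG (the NRF1 core) in 6 (7.69%) against 2.42% and 3.80%. The 3 motifs do not contain one another, and 45 members (57.7%) held at least 1 against 15.6% of all promoters and 24.4% of expressed ones. These letters are a description of the windows and not of factor binding. As examples from both ends of the response to the SMC1 hairpin, 6 promoters are printed from 150 bases upstream to 30 bases downstream of the start, 5′ to 3′ on the strand of the gene. Motif letters on either strand are in capitals. Mrpl14, Mrps16 and Mrps12 are among the members with the lowest ratio of SMC1 to GFP, Mrpl3 and Mrpl9 are among those with the highest, and Mrps11 starts 42 bases from Mrpl46, the only pair of members lying head to head. The stretches are chr17:45823171-45823350 (+) for Mrpl14, chr14:21212748-21212927 (−) for Mrps16, chr7:29526771-29526950 (−) for Mrps12, chr9:104955448-104955627 (+) for Mrpl3, chr3:94247108-94247287 (+) for Mrpl9 and chr7:85927867-85928046 (+) for Mrps11.
Mrpl14: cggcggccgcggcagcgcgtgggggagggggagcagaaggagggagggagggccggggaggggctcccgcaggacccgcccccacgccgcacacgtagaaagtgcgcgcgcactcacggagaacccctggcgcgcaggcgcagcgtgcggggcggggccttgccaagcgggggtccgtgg
Mrps16: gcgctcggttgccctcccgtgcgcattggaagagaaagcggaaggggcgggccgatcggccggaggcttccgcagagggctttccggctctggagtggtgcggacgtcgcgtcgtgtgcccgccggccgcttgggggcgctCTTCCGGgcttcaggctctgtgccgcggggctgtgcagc
Mrps12: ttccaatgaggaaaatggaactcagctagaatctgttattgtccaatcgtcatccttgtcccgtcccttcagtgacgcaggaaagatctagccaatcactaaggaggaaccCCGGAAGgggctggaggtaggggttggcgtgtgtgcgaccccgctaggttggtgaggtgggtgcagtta
Mrpl3: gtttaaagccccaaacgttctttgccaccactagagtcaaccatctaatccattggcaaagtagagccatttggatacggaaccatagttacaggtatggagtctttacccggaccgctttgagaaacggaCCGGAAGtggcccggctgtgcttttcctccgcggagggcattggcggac
Mrpl9: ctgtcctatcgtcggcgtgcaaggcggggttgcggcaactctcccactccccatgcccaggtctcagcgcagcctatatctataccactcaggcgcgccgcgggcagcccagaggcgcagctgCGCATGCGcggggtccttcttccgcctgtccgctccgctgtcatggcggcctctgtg
Mrps11: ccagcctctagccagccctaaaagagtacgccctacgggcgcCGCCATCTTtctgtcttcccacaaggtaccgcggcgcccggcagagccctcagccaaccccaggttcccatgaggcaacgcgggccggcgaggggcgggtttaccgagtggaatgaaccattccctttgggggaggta
Mrpl14 held none of the 3 motifs in its window, while Mrps16, Mrps12 and Mrpl3 held the ETS/GABP letters, Mrpl9 the NRF1 letters and Mrps11 the YY1 letters on the reverse strand. Mrps7, the member with the highest ratio, also held none of the 3 and is not printed. Members with the ETS/GABP letters had a median log2 ratio of SMC1 to GFP of -0.25, and the 43 without them one of -0.33.

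The libraries held 18823247 to 23324537 reads behind the RPKM values, and the lowest count of any member in any library was 35. Smc1a was at an RPKM of 14.4 in the SMC1 library against 36.1 in GFP, Ncaph2 (CAPH2) at 16.9 and 27.9 in its hairpins against 80.2, and Smc2 at 18.8 and 19.1 against 26.6. Smc2 was at 40.6 to 42.3 in SMC1 and the CAPH2 hairpins, so GFP was the lower of the libraries without an SMC2 hairpin. Ncaph2 was also below GFP without a CAPH2 hairpin, at 54.0 in SMC1 and at 63.9 and 64.9 in the SMC2 hairpins. The 6 ESC markers examined summed to an RPKM of 3096 in GFP, 1746 in SMC1 and 2591 to 2772 in the condensin libraries. The 8 fibroblast markers summed to 46.4 in GFP, 92.5 in SMC1 (8 of 8 higher than in GFP) and 49.5 to 72.4 in the condensin libraries, and 3 of them were under an RPKM of 1 in GFP. The 6 trophectoderm markers summed to 169, 286 and 131 to 176, and 3 of the 6 were higher in SMC1 than in GFP. The 8 primitive endoderm markers summed to 19.8, 18.7 and 19.6 to 21.9, with 6 of the 8 higher in SMC1 than in GFP and 5 of the 8 under an RPKM of 1 in GFP, as in SMC1. Both blood markers measured were under an RPKM of 1 in GFP and SMC1. Bulk RNA cannot tell fewer cells of a kind from less RNA per cell, and the part of these differences in the results for the members was not tested.

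In ESCs with the GFP hairpin the mitochondrial ribosomal protein genes were expressed well above the typical gene. Their median RPKM was 54.7, against 14.1 over all expressed genes, and 64 of 78 were among the top 25% of genes (RPKM of at least 34.4). Mrpl12, the L7/L12 homolog of the ribosomal stalk, was highest, at an RPKM of 175 in GFP, 137 in SMC1, 162 and 150 in the CAPH2 hairpins and 176 and 148 in the SMC2 hairpins. The SMC1 library was the lowest. It was followed in GFP by Mrpl24 at an RPKM of 143, by Mrpl34 at 134 and by Mrpl11, a protein of the stalk base, at 131. At the low end Mrps36 was at 3.88 in GFP, 2.71 in SMC1, 3.07 and 4.04 in the CAPH2 hairpins and 3.51 and 2.70 in the SMC2 hairpins, with overlapping values throughout. Mrps36 keeps its ribosomal symbol but is now known as a subunit of the 2-oxoglutarate dehydrogenase complex. Mrpl41 was next lowest (RPKM of 7.77 in GFP), then Mrpl1, which forms the L1 stalk (11.96), and Mrps33 (14.1). Together the members took 0.541% of the reads in GFP, 0.434% in SMC1, 0.517% ± 0.0128 with CAPH2 hairpins and 0.505% ± 0.0331 with SMC2 hairpins (SD, n = 2 each). With 2 libraries in each group a permutation test of the CAPH2 and SMC2 shares cannot give a p below 0.333, so they are given without a test.

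**Figure D1:**
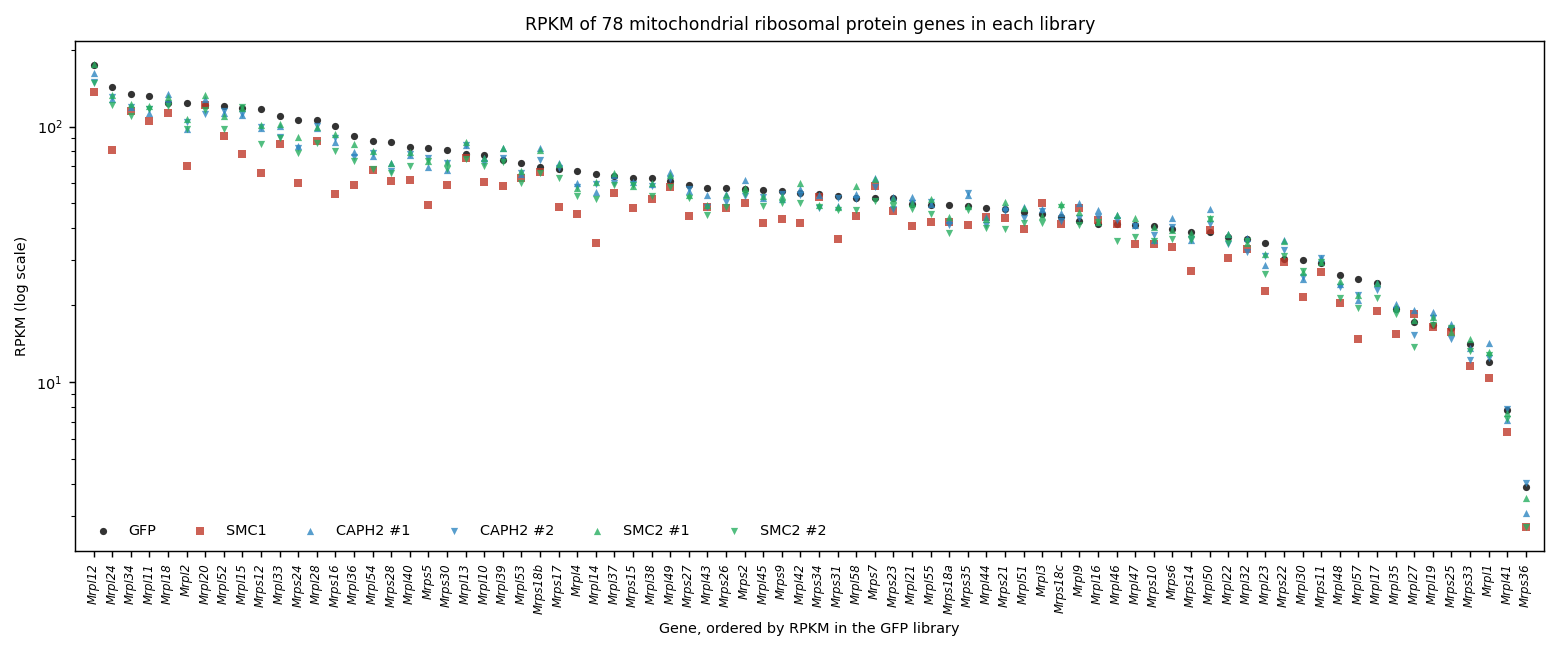
RPKM (log axis) of each of the 78 genes in each of the 6 libraries, ordered by RPKM in GFP, with 1 point per library and no error bar. Levels run from 175 (Mrpl12) to 3.88 (Mrps36) in GFP, and the red squares of SMC1 lie below the 5 other libraries in 56 genes.

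With the SMC1 hairpin the group was lower than in GFP by a modest and fairly even step. The median log2 RPKM ratio to GFP was -0.28 over the 78 members, against -0.03 over all 12381 genes. Of the members 71 were below 0 and 7 above, and the ratios ran from -0.91 to 0.16 with an interquartile range of 0.30, against 0.76 over all genes. Members at least 1.5-fold lower than GFP numbered 11 (14.1%), against 17.6% of all genes, and none was at least 1.5-fold higher, against 15.2% of all genes. None reached 2-fold in either direction. There was 1 library in each of these groups, so these ratios have no replicate check. SMC1 was below all 5 other libraries in 56 members, against 38.0% of all genes, and above all 5 in 1, against 33.7%. On counts scaled to the ERCC synthetic RNAs, which took 2.32% of reads in GFP and 1.27% in SMC1, the median of all genes moved to a log2 ratio of 0.83 and that of the members to 0.59. All directions given against GFP are therefore on the scale of a library's own reads, and only the distance of the members from all genes, -0.24 on either scale, does not depend on it.

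The 6 members with the lowest ratios all belong to the conserved core of the ribosome. Mrpl14, the uL14 homolog at the face between the subunits, had an RPKM of 65.4 in GFP, 34.9 in SMC1, 55.3 and 59.7 in the CAPH2 hairpins and 60.8 and 52.0 in the SMC2 hairpins. The SMC1 value stood apart from the 5 others and was 53.4% of that in GFP (exact binomial 95% interval 47.2 to 60.2%, which like all intervals here covers counting error only). Mrps16, the bS16 homolog, was at 100.2 in GFP, 54.3 in SMC1, 87.0 and 90.3 in the CAPH2 hairpins and 93.2 and 80.0 in the SMC2 hairpins. Mrps12, the S12 homolog at the decoding centre, was at 117 in GFP, 65.5 in SMC1, 98.7 and 99.96 in the CAPH2 hairpins and 101 and 85.7 in the SMC2 hairpins. In both, SMC1 was lowest and GFP highest of all libraries. Mrps24, the uS3 homolog, had a log2 ratio of SMC1 to GFP of -0.83, Mrpl24 one of -0.82 and Mrpl2, the uL2 homolog near the peptidyl transferase centre, one of -0.81. The other members at least 1.5-fold lower were Mrps5, Mrpl15 and, chosen here after their values were seen, Mrpl57, Mrpl36 and Mrpl23. At the other end, Mrps7, the S7 homolog, was at 52.5 in GFP, 58.7 in SMC1, 63.0 and 57.9 in the CAPH2 hairpins and 62.2 and 51.2 in the SMC2 hairpins, and its SMC1 value lay among those of the condensin libraries. Mrpl9, the L9 homolog, and Mrpl3, which reaches toward the peptidyl transferase centre, had log2 ratios of 0.16 and 0.14, Mrpl27 one of 0.10, Mrpl16 one of 0.05 and Mrpl50 one of 0.03. The counting interval of SMC1 relative to GFP lay wholly below 100% in 58 members and wholly above in 3. The share of all genes with such intervals was not counted, so these counts have no background to set the members apart.

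**Figure D2:**
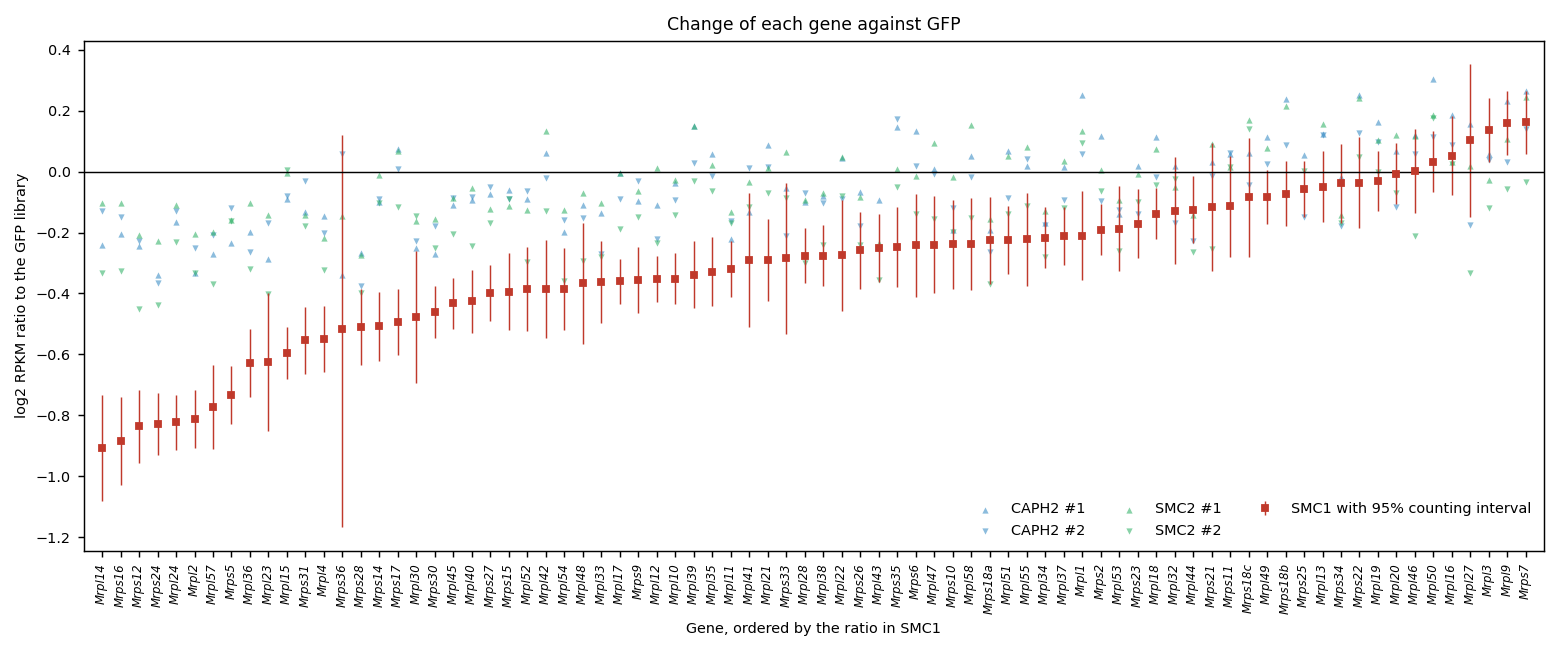
Log2 RPKM ratio to GFP of each gene in SMC1 (red squares, bars are exact 95% counting intervals) and in each condensin library (triangles, no bars), ordered by SMC1. SMC1 runs from -0.91 to 0.16 with 71 of 78 genes below 0, on the scale of each library's own reads and not that of the ERCC RNAs, on which the median is 0.59.

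A step of like size was seen in short genes at large. The members' transcripts had a median exon length of 1028.5 bases, against 2678 over all expressed genes, and of 10 equal groups of genes by length the shortest held 45 of them and the next 14. With the SMC1 hairpin the median log2 ratio of all genes rose from group to group, from -0.34 in the shortest (up to 1060 bases) to 0.38 in the longest (from 5773 bases). After the median of its length group was taken from each member, the members' median was -0.013, with 41 below the trend and 37 above. Within the 2 shortest groups the members' median was -0.28 and that of all genes -0.30, and 10 of 59 members (16.9%) were at least 1.5-fold lower against 29.0% of these genes. The interquartile range of members there was 0.30 against 0.67, which also takes in genes of low level. A limit to an RPKM of at least 20 in GFP, chosen after the data were seen, left 56 members and 1306 genes of these groups. Their interquartile ranges were 0.28 and 0.49, and 17.9% of these members were at least 1.5-fold lower against 25.1% of the genes. The members thus lay closer together than other short genes, by less when genes of low level were left out. The 19 longer members had a median of -0.29. Relative to their own length groups their median was -0.25, with 15 below and 4 above. Examples among the 10 members over 2000 bases are Mrpl1 (3431 bases), with a log2 ratio of -0.21, or -0.25 relative to its length group, and Mrpl41 (2423 bases), with one of -0.29, or -0.25 relative to its group. Larger departures were seen too, in members chosen after their values were seen. Mrpl17, the longest member (6712 bases), had a ratio of -0.36, or -0.74 relative to its group. Mrpl57 (2321 bases) had one of -0.77, in a length group with a median of -0.04. Mrpl50 (2103 bases) went the other way, with a ratio of 0.03, or 0.15 relative to its group, and Mrps2 (2079 bases), chosen after its value was seen, had one of -0.19, or -0.07 relative to its group. Why length moved with the ratio was not tested.

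**Figure D3:**
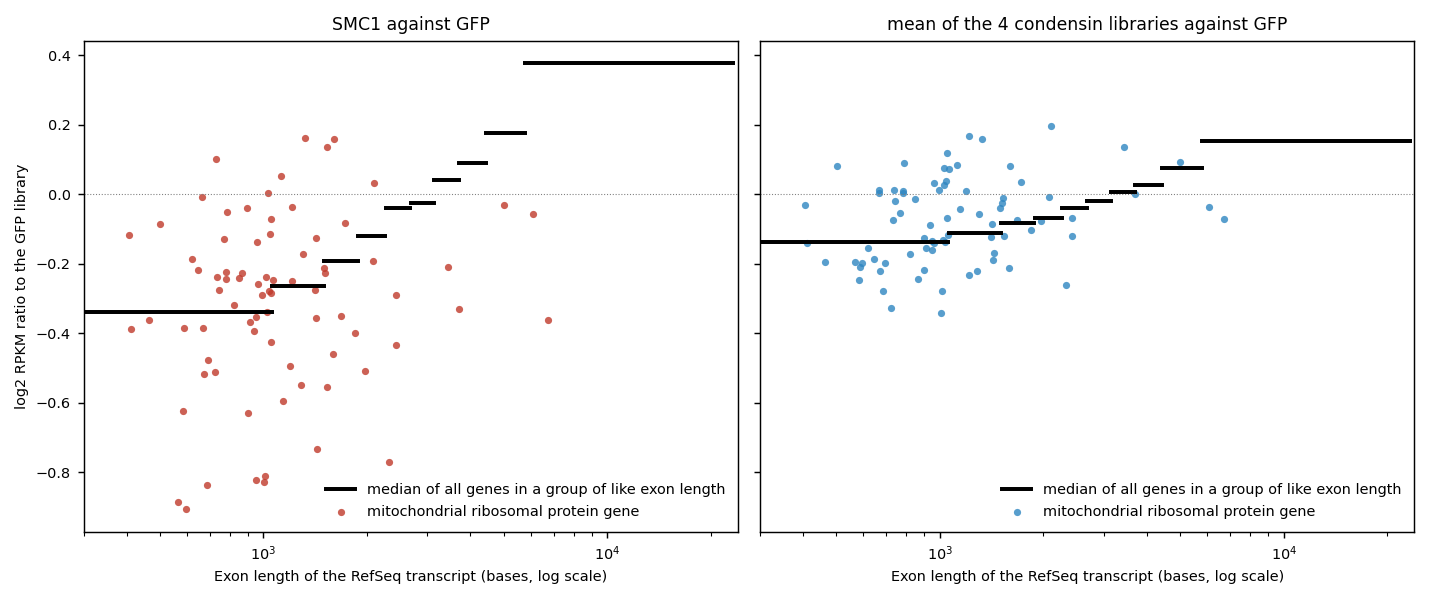
Log2 RPKM ratio to GFP against exon length (log axis) for each of the 78 genes (points), for SMC1 (left) and for the mean of the 4 condensin libraries (right), with the median of all genes in each of 10 groups of exon length (black bars). The bars rise from -0.34 to 0.38 in SMC1 and from -0.14 to 0.15 in the condensin mean, and members scatter around the bars at short lengths. Both panels are on the scale of each library's own reads.

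SMC1 was then compared with the 4 condensin libraries in an edgeR quasi-likelihood fit over 18463 transcripts. It takes its spread from the CAPH2 and SMC2 pairs and assumes that the single SMC1 library varies alike. This fit and the edgeR fits below are on the scale of each library's own reads, and none was made on the ERCC scale. On the ERCC scale the members' median log2 ratio to GFP was 0.59 with SMC1 and 0.52 with SMC2. It was 0.26 with CAPH2, whose hairpins differed in ERCC share. Members called lower with SMC1 are therefore not shown to be lower on that scale. In the fit, at a Benjamini-Hochberg adjusted p under 0.05, 28 of 78 members were lower with SMC1 and none higher. Among all transcripts 21.3% were called lower and 23.1% higher. At an unadjusted p under 0.05, 36 were lower and 0 higher, against 52.3% of all transcripts in either direction, and the DESeq2 Wald test called 21 lower (26.9%) and 0 higher, against 14.7% and 14.95% of all transcripts. The fitted log2 difference was -0.73 ± 0.13 (SE) for Mrpl14, with an edgeR adjusted p of 0.00143, -0.71 ± 0.11 for Mrps16, with an edgeR adjusted p of 0.000854, and -0.69 ± 0.09 for Mrpl24, with an edgeR adjusted p of 0.000222. Mrps5, the S5 homolog, fell by 0.59 on the log2 scale, Mrps12 by 0.58, Mrpl15 by 0.58, Mrpl2 by 0.56, Mrps24 by 0.51 and Mrpl1 by 0.37. In none of these 9 does the SMC1 value overlap the condensin values: Mrps5 was at 49.4 in SMC1 and at 69.8 to 75.6 in the condensin libraries, and Mrpl15, at 78.4 in SMC1, was at 111 to 119. The other 19 called members, chosen after their values were seen, had log2 differences of -0.54 to -0.27. They were Mrpl4, Mrpl10, Mrpl17, Mrpl21, Mrpl35, Mrpl36, Mrpl39, Mrpl40, Mrpl42, Mrpl45, Mrpl57 and Mrps30 of the large subunit and Mrps9, Mrps14, Mrps15, Mrps17, Mrps27, Mrps31 and Mrps35 of the small subunit. With the length trend entered as an offset 22 members were lower and 2 higher, against 22.2% and 20.9% of transcripts. Of the 28 lower calls 20 were also made in that fit, and 26 in each of the 4 fits that left out 1 condensin library, which called 26 to 39 members lower. The 2 higher calls under the offset were Mrpl3, the L3 homolog, and Mrps34, a small-subunit protein particular to mitochondria.

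**Figure D4:**
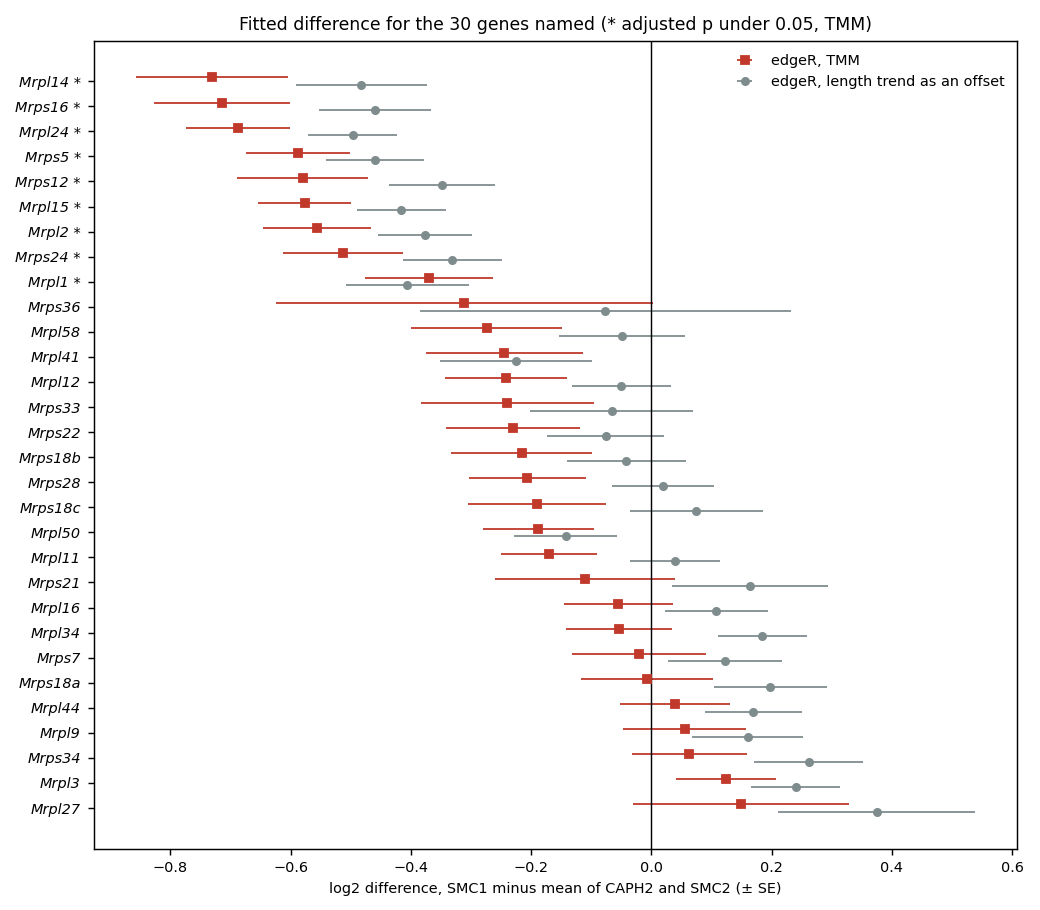
Log2 difference between SMC1 and the mean of the CAPH2 and SMC2 groups (± SE, edgeR) for the 30 genes named by rule, without (red) and with (grey) the length trend as an offset, and an asterisk for an adjusted p under 0.05 without it. The 9 genes with an asterisk lie between -0.73 and -0.37, and the offset moves most short genes to the right.

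Several members named for their role did not pass in this fit. Mrps18a, Mrps18b and Mrps18c are paralogs of bacterial S18, of which the first is built into the large subunit. Mrps18a was at 49.3 in GFP, 42.1 in SMC1 and 38.2 to 44.2 in the condensin libraries, Mrps18b at 69.7, 66.3 and 65.9 to 82.1, and Mrps18c at 44.2, 41.6 and 42.9 to 49.6. Their log2 differences between SMC1 and condensin were -0.01 ± 0.11, -0.22 ± 0.12 and -0.19 ± 0.11 (SE). Mrpl44, which carries an RNase III-like fold, was at 48.1 in GFP, 44.1 in SMC1 and 40.04 to 44.1 in the condensin libraries, a log2 difference of 0.04 ± 0.09. Mrpl58, a peptidyl-tRNA hydrolase within the large subunit, was at 52.6 in GFP, 44.6 in SMC1 and 47.3 to 58.5 in the condensin libraries, a difference of -0.27 ± 0.13. Mrps22, of the small subunit, was at 30.2 in GFP, 29.5 in SMC1 and 31.2 to 35.9 in the condensin libraries, a difference of -0.23 ± 0.11. The SMC1 values of Mrpl58 and Mrps22 lay below the 4 condensin values, while those of Mrps18a and Mrps18b lay within them.

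Depletion of condensin left the group close to its level in GFP. The median log2 ratio to GFP was -0.07 with the CAPH2 hairpins averaged, -0.06 with the first and -0.09 with the second alone, and -0.09 with the SMC2 hairpins averaged (-0.03 with SMC2 #1 and -0.15 with SMC2 #2), against -0.02 and -0.03 over all genes. Set against the length trend the medians were 0.023 and 0.011. No member was 1.5-fold lower or higher with either average, while 4.04% and 3.1% of all genes were lower and higher with CAPH2 and 3.8% and 2.32% with SMC2. SMC2 #2 was the lowest of the 4 condensin libraries in 60 members, against 29.8% of all genes. On the ERCC scale the medians were 0.26 and 0.52 and those of all genes 0.32 and 0.57. The CAPH2 hairpins differed in the share of reads taken by the ERCC RNAs. It was 1.496% in CAPH2 #1 and 2.397% in CAPH2 #2, against 2.319% in GFP. In SMC2 #1 and SMC2 #2 it was 1.491% and 1.565%. Medians on the ERCC scale are not given for each hairpin, so the CAPH2 value of 0.26 does not show a rise with each CAPH2 hairpin. In the edgeR fit of GFP against the 4 condensin libraries 1 member was higher in GFP and none lower, against 5.43% and 7.04% of transcripts. At an unadjusted p under 0.05, 8 were higher and 1 lower, against 30.6% of all transcripts in either direction. DESeq2 called 0 either way, against 3.18% of transcripts higher and 4.53% lower. The called gene, Mrps24, was at an RPKM of 106 in GFP, 84.1 and 82.6 in the CAPH2 hairpins and 90.9 and 78.6 in the SMC2 hairpins. It differed by 0.33 ± 0.09 (SE, log2) with an edgeR adjusted p of 0.0465, and the call is lost under DESeq2, with the length offset and without SMC2 #2. The members' median log2 difference of GFP from condensin was 0.06 in the main fit and also without SMC2 #2. It was 0.11, 0.08 and 0.08 without SMC2 #1, CAPH2 #1 and CAPH2 #2. Mrps28, Mrps12 and Mrpl2 followed Mrps24 among the lowest condensin means, with log2 ratios to GFP of -0.33, -0.28 and -0.28. Mrpl50, Mrps22, Mrps7 and Mrpl1 had the highest, at 0.20, 0.17, 0.16 and 0.14. GFP was above all 4 condensin libraries in 38 members, against 38.3% of all genes, and below all 4 in 5, against 31.9%.

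No difference between CAPH2 and SMC2 depletion was detectable in these genes. In the edgeR quasi-likelihood fit of SMC2 against CAPH2 over 18245 transcripts 0 of 78 members passed an adjusted p under 0.05. Among all transcripts 0.00548% were called in either direction. At an unadjusted p under 0.05, 0 members passed, against 3.10% of all transcripts. DESeq2 called 0 members, against 0.0219% of transcripts higher and 0.00548% lower. The largest gaps lay between hairpins of the same target. Mrps36 differed by 0.40 on the log2 scale between the CAPH2 hairpins, on 35 to 56 counts per library, and Mrpl27 by 0.33 and 0.35 between the CAPH2 and between the SMC2 hairpins. Mrps21 was at an RPKM of 50.5 with SMC2 #1 and 39.7 with SMC2 #2.

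By place in the ribosome, the 26 small-subunit genes had a median log2 ratio to GFP of -0.25 and 11 (42.3%) passed as lower against the condensin libraries. The 51 large-subunit genes, which include Mrps30 and Mrps18a, had a median of -0.28 and 17 (33.3%) passed. Within the small subunit the 16 conserved genes had a median of -0.38 and the 10 mitochondrial ones one of -0.21. Genes with bacterial homologs (46) had a median of -0.30, and 10 of them were at least 1.5-fold lower and 19 (41.3%) passed. Genes particular to mitochondria (31) had a median of -0.25, and 1 was 1.5-fold lower and 9 (29.0%) passed. In the fit of SMC1 against the condensin libraries 21.3% of all transcripts were called lower. By RPKM 17.6% of all genes were at least 1.5-fold lower in SMC1 than in GFP. No test of the difference between these classes was made. Less the length trend the medians of the conserved and the mitochondrial genes were -0.04 and 0.014.

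Many of these genes share their start region with a neighbour. A gene on the opposite strand started within 1000 bases upstream, head to head, of 24 of 78 members (30.8%), against 8.52% of all genes and 13.0% of expressed genes. The 22 neighbours that are not members had a median log2 ratio of SMC1 to GFP of -0.09, and 14 of 22 were below 0. The members of these pairs had a median of -0.23. Pairs did not always go the same way. Mrpl14 starts 154 bases from Tmem63b, which was at an RPKM of 30.4 in GFP and 38.6 in SMC1, and Mrps12 starts 210 bases from Sars2, the mitochondrial seryl-tRNA synthetase, at 27.025 and 20.2. Other neighbours work in mitochondria too: Mrpl43 lies beside Twnk, the mitochondrial DNA helicase (log2 ratio of 0.04), Mrpl47 beside Ndufb5 of complex I (-0.69), and Mrps27 beside Ptcd2, a mitochondrial RNA-binding protein (-0.44). Mrpl51 starts 614 bases from Ncapd2, a subunit of condensin I, at 134 in GFP, 113 in SMC1 and 108 to 120 in the condensin libraries. Mrpl46 and Mrps11, the head-to-head pair of members, had log2 ratios in SMC1 of 0.00 and -0.11. These pairs were chosen for their neighbours after values were seen.

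The other genes of mitochondrial translation were counted in the same fit, in which 21.3% of all transcripts were called lower with SMC1 and 23.1% higher. Of 5 ribosome subunits with other symbols 3 were lower with SMC1 than with condensin depletion and 0 higher, with a median log2 ratio of SMC1 to GFP of -0.46. Dap3, the small-subunit GTPase, was at 34.6 in GFP, 21.5 in SMC1 and 28.0 to 29.9 in the condensin libraries. Gadd45gip1 and Aurkaip1 were the others. Of 14 translation factors 4 (28.6%) were lower and 0 higher, with a median of -0.05 against -0.03 over all genes, among them the elongation factor Tsfm (59.7 in GFP, 38.8 in SMC1) and the release factor Mtrf1 (5.94 and 3.49). Of 20 assembly and rRNA modification factors 9 were lower and 0 higher, with a median of -0.16, led by Mrm1, Mtg1 and Rbfa at log2 ratios of -0.72, -0.67 and -0.66. Of 17 mitochondrial tRNA synthetases 7 were lower and 1 higher, with a median of -0.33. Fars2, the phenylalanyl enzyme, had a log2 ratio of -0.96, and Wars2, the tryptophanyl enzyme, was the one higher, at 2.19 in GFP and 3.95 in SMC1. Of 10 genes for mitochondrial DNA replication and transcription 4 were lower and 0 higher, with a median of -0.25. Of 8 expressed regulators of nuclear genes for mitochondria 1 (12.5%) was lower and 0 higher. It was Gabpa, an ETS subunit of GABP, which was chosen after its value was seen, at 35.3 in GFP, 31.1 in SMC1 and 39.6 to 42.5 in the condensin libraries. The largest change from GFP in this list was that of the transcription factor Myc, at 10.2 in GFP, 20.1 in SMC1 and 16.6 to 22.4 in the condensin libraries. Myc was lower in GFP than with condensin depletion, with an edgeR adjusted p of 0.0161, and the log2 difference of SMC1 from condensin was 0.07 ± 0.16 (SE).

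The nuclear oxidative phosphorylation subunits stood lower than the ribosomal genes. Of 80 expressed subunits 53 (66.25%) were lower and 0 higher with SMC1 than with condensin depletion, against 21.3% and 23.1% of all transcripts. Their median log2 ratio of SMC1 to GFP was -0.50, or -0.19 less the length trend. The 85 cytosolic ribosomal protein genes had a median of -0.39, or -0.10 less the trend, with 32 (37.6%) lower and 1 higher. Of the mitochondrial ribosomal genes 35.9% were lower and 0 higher. The mitochondrial ribosomal genes, with medians of -0.28 and -0.013, were the nearest to the trend of these 3 large groups of short genes. Their median RPKM in GFP was 54.7, against 131 for the oxidative phosphorylation subunits and 24.1 for the cytosolic ribosomal proteins as listed in the files. Copies elsewhere in the genome were not sought for the other lists, and reads matching too many places were discarded. These medians therefore do not rank the true levels of the groups. The difference between the groups was not tested.

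**Figure D5:**
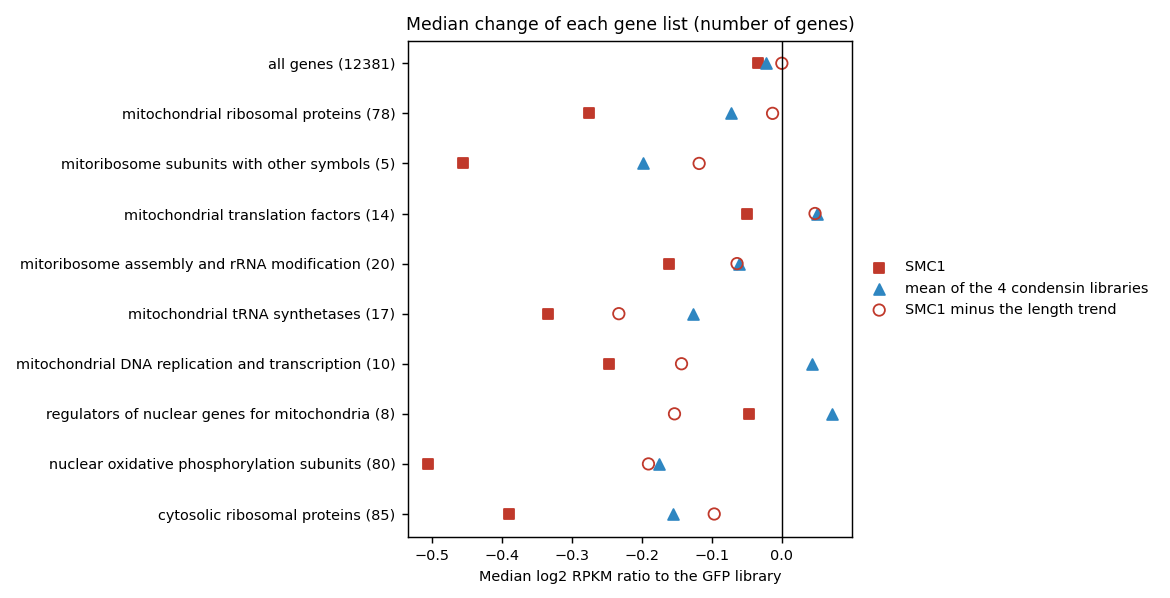
Median log2 RPKM ratio to GFP of each list, with its number of expressed genes, for SMC1 (squares), the mean of the 4 condensin libraries (triangles) and SMC1 less the length trend (open circles), with no error bar. The mitochondrial ribosomal proteins lie at -0.28, -0.07 and -0.013 on the scale of each library's own reads, and oxidative phosphorylation subunits at -0.50, -0.18 and -0.19.

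Reads shared with copies or neighbours limit some members. Of the 78 members 19 had at least 1 other place in the genome matching 50% or more of the transcript at 90% identity, and 9 had 2 or more, among them Mrps36 (7), Mrpl27 (3), Mrps16, Mrps21, Mrps33 and Mrpl41 (2 each). Reads that match too many places were discarded in processing, so the levels of these genes are uncertain. Those 9 had a median RPKM of 30.1 in GFP against 57.2 for the other 69, and medians of log2 SMC1 to GFP of -0.29 and -0.27. In 15 members over 10% of the annotated exon bases also belong to another gene, including Mrps34 (70.6%), Mrps18b (30.5%), Mrpl24 (26.3%), Mrpl12 (13.1%), Mrps7 (11.9%) and Mrpl14 (11.2%). Whether strand was used in counting is not given in the sources used here, so such reads cannot be assigned.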

How the data were processed

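RNA was measured in 6 V6.5 ESC libraries. The authors aligned reads to mm9 with Bowtie, kept those matching few places, and deposited raw read counts per RefSeq transcript, in which an exon shared by isoforms counts for each, and RPKM values scaled to exon length and library reads. The starts in the files count from 0 and are given here from 1. Accessions were matched to symbols in a RefSeq table for 25353 of 26073 transcripts; 720 have no symbol, cannot be members and stayed in the fits.

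Log2 ratios to GFP used the deposited RPKM with no pseudocount over genes that reached an RPKM of 1 with the GFP hairpin, 1 transcript per gene. CAPH2 and SMC2 hairpins were averaged as RPKM. The length trend is the median of all genes in each of 10 equal groups of exon length. Counts of at least 10 in at least 2 libraries were tested with edgeR 4.0.16 (TMM, quasi-likelihood, R 4.3.3) and Benjamini-Hochberg adjustment over all transcripts, with DESeq2 1.42.0 as an alternative. In the 6-library fit the single GFP and SMC1 libraries are assumed to vary like the condensin pairs, and p-values measure only the spread between these hairpins. The scripts were tested on simulated data for SMC1 against the condensin libraries. Of 18329 transcripts, 93 of 100 changed by 1 on the log2 scale and 100 of 100 changed by 2 were recovered, with 10 false calls. The simulated SMC1 library was given the same spread as the others. The simulation therefore cannot check the assumption that SMC1 varies like the condensin pairs. Hairpin libraries of a target differed beyond counting noise, so none was counted as a duplicate. Copies were sought with blastn 2.17.0 in the mm9 genome, exon overlaps in GENCODE vM1. Figures were drawn with matplotlib 3.10.9.

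The members and lists were chosen with earlier results of these data known. Genes named are the 4 highest and 4 lowest in GFP, the 6 largest rises and falls with SMC1 and 4 with condensin (mean of at least 100 counts), the 3 largest hairpin differences, calls with the 6 smallest p per direction, 12 members by role and up to 3 per other list. Alternatives were other scalings, filters, transcripts per gene, a pseudocount of 1, a 2-fold threshold, an offset for length, single libraries left out and a replicate block.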

Additional observations from a re-analysis of the deposited data

Results flagged for a closer look

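For 9 of the members named, the change with the SMC1 hairpin differed from that with the condensin hairpins by a test of the difference itself (edgeR quasi-likelihood test, adjusted p under 0.05). The rule for naming took members with the smallest p in this fit and the largest falls with SMC1, so the choice itself favoured such calls. Over all transcripts 21.3% were called lower and 23.1% higher. The fit is on the scale of each library's own reads, and none was made on the ERCC scale. The log2 difference, SMC1 minus the condensin mean, was -0.73 for Mrpl14, -0.71 for Mrps16, -0.69 for Mrpl24, -0.59 for Mrps5, -0.58 for Mrps12, -0.58 for Mrpl15, -0.56 for Mrpl2, -0.51 for Mrps24 and -0.37 for Mrpl1. With the length trend as an offset each of the 9 was still called lower. Mrpl14 and Mrpl24 share 11.2% and 26.3% of their exon bases with another gene, and Mrps16 has 2 near-identical places elsewhere in the genome, and the part of this in their values was not tested. No group holds enough libraries for a search for outlying samples.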

How the results depend on the processing

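The ratios of SMC1 and GFP rest on 1 library each, and counting intervals do not cover culture or hairpin differences. Scaling to the ERCC RNAs turned the members' median log2 ratio to 0.59 for SMC1, 0.26 for CAPH2 and 0.52 for SMC2, with 0 members at least 1.5-fold lower for SMC1, and 40 (SMC1) and 21 (SMC2) at least 1.5-fold higher, or 51.3% and 26.9%, against 67.4% and 47.9% of all genes. The ERCC value for CAPH2 averages hairpins with ERCC shares of 1.496% (CAPH2 #1) and 2.397% (CAPH2 #2) and is not given for each alone. TMM and DESeq2 size factors gave -0.29 and -0.30 for SMC1. Less the length trend the medians were -0.013 for SMC1 with 2 members at least 1.5-fold lower, 0.023 for CAPH2 and 0.011 for SMC2. Less a trend over length and level, chosen after seeing the data, they were 0.0071, 0.023 and 0.014, with 1 member lower for SMC1. At 2-fold 0 members were lower with SMC1. Against the condensin libraries, the length offset called 2 members higher with SMC1. Members higher in GFP numbered 2 with DESeq2 size factors, 0 with DESeq2, 3 with no filter, 0 with the length offset, 3 in the fit of 5 libraries and 0 to 6 without single libraries; the causes were not tested. The median fitted log2 difference of SMC2 from CAPH2 turned from -0.03 to 0.05 without SMC2 #2. The replicate numbers do not pair the hairpins (correlation of deviations 0.0488), and a replicate block called 0 members in SMC2 against CAPH2, with 10 transcripts higher and 5 lower among all. The other 141 values of group results did not change direction or call. For the 30 genes named, 25 fitted differences gained and 4 lost a call, and none with a call changed sign. Of the 899 differences under alternatives, 65 without a call changed sign, 17 of them with the length offset and 44 with a library left out. With the length offset the members above 0 for SMC1 went from 5 to 26 of 78.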
